A study of Capra hircus with 9 samples.

Results

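Adipocyte marker and lipolysis genes were followed through 3 stages of the goat mammary gland that lie outside the peak of milk production. The 10 genes were chosen by name from what is known of fat cells: the secreted factors ADIPOQ, LEP and CFD, the fatty acid binding protein FABP4, the lipid droplet proteins PLIN1, PLIN4 and CIDEC, the transcription factor PPARG, and the lipases LIPE and PNPLA2. Of these, 9 were found by symbol among 23499 genes, and FABP4 was not analysed under its symbol. The 10 genes were named with earlier results of these data already known, so the choice was not blind to them. RNA of the mammary gland was sequenced from 9 Laoshan dairy goats, with a library for each animal. The goats were in the third parity on a single farm and received no treatment: 3 were slaughtered in late lactation (LL) at 240 days postpartum, 3 in the dry period (DP) at 300 days postpartum, and 3 in late gestation (LG) at 140 days after mating. Each stage comes from different animals, so every difference between stages is also a difference between goats.

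White adipocytes store triglyceride in a large lipid droplet, coated by perilipins and enlarged by CIDE proteins, and release adipokines into the blood. Lipolysis begins with PNPLA2 (adipose triglyceride lipase), which removes a first fatty acid from triglyceride, and goes on with LIPE (hormone-sensitive lipase), which acts on the diglyceride. In the udder the milk-secreting epithelium grows within a fat pad and connective tissue, and that epithelium also makes lipid droplets, which it secretes as milk fat. Several of the 10 genes, among them PPARG, PNPLA2 and LIPE, are therefore not restricted to fat cells. In whole tissue, fewer cells of a type and less RNA per cell cannot be told apart.

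The values are FPKM, mapped fragments per kilobase of gene relative to all mapped fragments of the library, as deposited. FPKM carry no counts, so the depth behind each value is unknown and counting error could not be given. FPKM are shares of a library, and the stages differ widely in milk genes: CSN2, the beta-casein gene, had 83442 to 101530 FPKM in LL libraries, 17.6 to 47.8 in DP libraries and 3851 to 6044 in LG libraries. Each library was divided by a median-ratio factor, 0.498 to 0.606 in the LL libraries, 1.44 to 1.53 in the DP libraries and 1.20 to 1.31 in the LG libraries, so that the typical gene has a like level in all stages. These scaled values were compared as log2(scaled FPKM + 1) with limma across 14701 genes, those with 0.5 FPKM or more in 3 or more libraries. Genes counted as changed where the p-value, adjusted by the Benjamini-Hochberg method over all of them, was under 0.05 and the log2 fold change lay at 1 or beyond in either direction. Without scaling, the median of all genes moved by 1.09 for DP against LL, 0.93 for LG against LL and -0.18 for LG against DP on the log2 scale, so each fold change here is relative to the typical gene. Replicates within a stage correlated at 0.920 to 0.980 over the genes tested (Pearson r of log2 values), lowest for DP1 and DP3.

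Adipocyte-restricted genes were near the bottom of the expression range, with a single exception among the libraries. ADIPOQ (gene ID 102173125, chromosome 1, 80092745 to 80105787, minus strand, assembly ARS1.2), which encodes the insulin-sensitising adipokine adiponectin, had 0.23, 0.08 and 0.20 FPKM in LL1 to LL3, 19.32, 0.79 and 1.72 in DP1 to DP3, and 0.20, 0.41 and 0.27 in LG1 to LG3. All 3 DP libraries lay above every LL and LG library, and DP1 stood far above the other DP libraries. After scaling, ADIPOQ in DP1 was 23.1 times that in DP2 and 10.6 times that in DP3. The log2 fold change was 1.46 for DP against LL (SE 0.64, limma adjusted p = 0.0766) and -1.54 for LG against DP (SE 0.64, adjusted p = 0.0899), so neither was called, and for LG against LL it was -0.08 (SE 0.64, adjusted p = 0.926). The SE is pooled over all stages, and in a limma fit of LG and LL only it was 0.13 (adjusted p = 0.615). The DP against LL value rested on DP1: without it the fold change was 0.50 (adjusted p = 0.0529), and without DP2 it was 2.07 (adjusted p = 0.0189), which was called. ADIPOQ reached the expression limit only through the DP libraries, so its place among the tested genes already depended on that stage.

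PLIN1 (gene ID 102190552, chromosome 21, 20374402 to 20389135, minus strand) encodes perilipin 1, the coat protein that guards the adipocyte droplet from lipases until it is phosphorylated. It had 0.05, 0.05 and 0.18 FPKM in LL1 to LL3, 5.83, 0.39 and 0.41 in DP1 to DP3, and 0.12, 0.20 and 0.23 in LG1 to LG3. DP1 was again the high library, 13.4 times DP3 and 14.1 times DP2 after scaling, and DP2 and DP3 were close to each other. LL and DP did not overlap in FPKM as deposited but did after scaling.

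PLIN4 (gene ID 102171863, chromosome 7, 90918821 to 90932467, minus strand), a perilipin of small and newly formed droplets, had 0.03, 0.04 and 0.10 FPKM in LL1 to LL3, 1.20, 0.13 and 0.52 in DP1 to DP3, and 0.32, 0.38 and 0.17 in LG1 to LG3. DP1 was the highest library and DP2 lay below all 3 LG libraries, so DP and LG overlapped. LEP (gene ID 100860794, chromosome 4, 27665915 to 27682284, minus strand) encodes leptin, the adipokine that reports fat stores to the brain. It was listed at 0 in LL1, LL2, LL3, LG2 and LG3, at 0.12 FPKM in LG1, and at 0.86, 0.07 and 0.11 FPKM in DP1 to DP3. LEP was thus above 0 in all DP libraries and in 1 of the other 6, with DP1 highest once more.

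PLIN1, PLIN4 and LEP stayed under the expression limit and entered no main test. In a fit over all genes above 0 in any library, their log2 fold changes for DP against LL were 0.78 (SE 0.45, limma adjusted p = 0.195), 0.33 (SE 0.16, adjusted p = 0.117) and 0.27 (SE 0.14, adjusted p = 0.136), and none was called. Without DP1 the same fold changes were 0.14, 0.15 and 0.09. The pseudocount of 1 is larger than most of these levels, so these folds understate differences between low values.

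**Figure D1:**
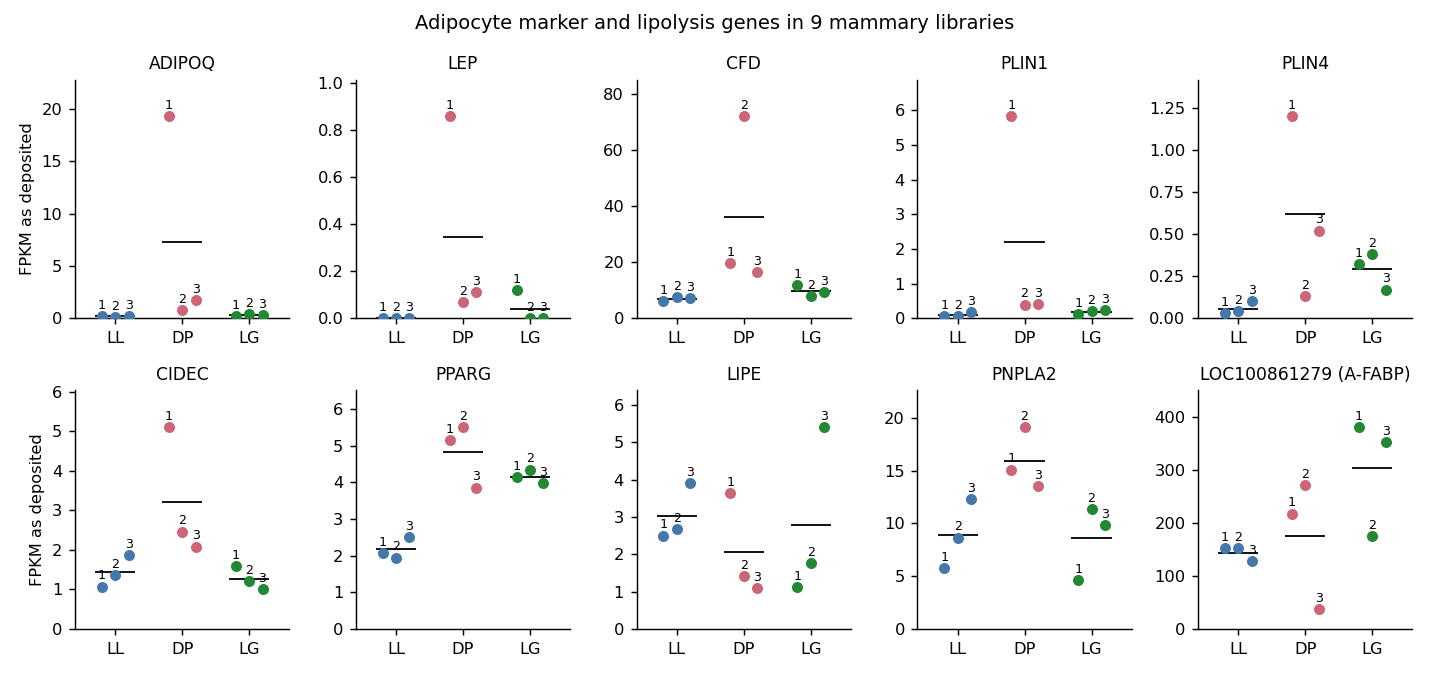
FPKM as deposited (y axis, linear, from 0) of the 9 genes found and of LOC100861279, the gene with the RefSeq synonym A-FABP, in late lactation (LL), the dry period (DP) and late gestation (LG). Points are libraries numbered by replicate and bars are means of 3; DP1 is the top point for ADIPOQ, LEP, PLIN1, PLIN4 and CIDEC, whereas DP2 is the top point for CFD at 71.99 FPKM.

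CIDEC (gene ID 102183371, chromosome 22, 16688728 to 16698787, plus strand), which promotes droplet fusion into the single large droplet of white adipocytes, was present in every library. It had 1.07, 1.37 and 1.87 FPKM in LL1 to LL3, 5.11, 2.46 and 2.08 in DP1 to DP3, and 1.58, 1.20 and 1.00 in LG1 to LG3. DP lay above both other stages as deposited, but after scaling only DP1 exceeded the LL libraries. The scaled LG libraries were all below those of LL, with a log2 fold change of -0.82 for LG against LL (SE 0.22, limma adjusted p = 0.0106), under the fold limit and so not called. For DP against LL the value was -0.21 (SE 0.22, adjusted p = 0.415) and turned to 0.74 without scaling. CIDEC overlaps LOC108633373 on the other strand, and the library kit does not mark strand, so reads in the shared stretch could not be told apart.

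CFD (gene ID 102173560, chromosome 7, 67064238 to 67066843, minus strand), encoding the adipokine adipsin, which is also factor D of the alternative complement pathway, followed another library. It had 6.04, 7.45 and 7.15 FPKM in LL1 to LL3, 19.51, 71.99 and 16.50 in DP1 to DP3, and 11.73, 7.94 and 9.17 in LG1 to LG3. Here DP2 stood out, at 49.9 scaled FPKM against 12.8 in DP1 and 11.5 in DP3, and the latter pair lay within or just beside the LL range of 11.8 to 13.5. The log2 fold change was 0.61 for DP against LL (SE 0.45, adjusted p = 0.262) and -0.04 without DP2. For LG against LL it was -0.64 (SE 0.45, adjusted p = 0.262). That SE is pooled over all stages and includes the DP spread. In a limma fit of 2 stages only the SE was 0.17 (adjusted p = 0.0136), and the value stayed under the fold limit. For LG against DP the log2 fold change was -1.26 (SE 0.45, adjusted p = 0.0548), which was called without DP1 (-1.55, adjusted p = 0.0367) or DP3 (-1.62, adjusted p = 0.0229) but not without DP2 (-0.60, adjusted p = 0.0413, under the fold limit).

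PPARG (gene ID 100861309, chromosome 22, 56681415 to 56726563, minus strand) encodes the nuclear receptor that drives adipocyte differentiation and is also expressed in ruminant mammary epithelium. Its FPKM as deposited was 2.06, 1.95 and 2.51 in LL1 to LL3, 5.15, 5.52 and 3.86 in DP1 to DP3, and 4.14, 4.35 and 3.99 in LG1 to LG3. The LL libraries were below all others as deposited, but after scaling all 3 stages lay between 2.68 and 4.15 scaled FPKM. The log2 fold changes were -0.21 (SE 0.13, adjusted p = 0.188), -0.19 (SE 0.13, adjusted p = 0.255) and 0.02 (SE 0.13, adjusted p = 0.909) for DP against LL, LG against LL and LG against DP. No stage difference in PPARG was called, and DP1 did not stand apart.

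The lipases were the members called between stages. LIPE (gene ID 100860801, chromosome 18, 51779326 to 51797140, plus strand) had 2.50, 2.67 and 3.91 FPKM in LL1 to LL3, 3.65, 1.42 and 1.10 in DP1 to DP3, and 1.13, 1.77 and 5.42 in LG1 to LG3. After scaling the LL libraries had 5.02, 4.83 and 6.46, above all of DP (2.39, 0.985 and 0.764) and LG (0.944, 1.44 and 4.13). LIPE was lower in DP than in LL by a log2 fold change of -1.49 (SE 0.35, limma adjusted p = 0.00574) and lower in LG than in LL by -1.14 (SE 0.35, adjusted p = 0.0217). The call in DP held without any 1 library and at every setting tried but no scaling, where the value was -0.47. The call in LG was lost without LL3 (adjusted p = 0.0715), LG1 (adjusted p = 0.0788) or LG2 (adjusted p = 0.0716), and without scaling (-0.25). LIPE did not differ detectably between LG and DP (0.34, SE 0.35, adjusted p = 0.477), and LG3 was the library that set the LG spread.

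PNPLA2 (gene ID 100860889, chromosome 29, 45698335 to 45704087, minus strand) was expressed at 5.73, 8.65 and 12.27 FPKM in LL1 to LL3, 15.10, 19.16 and 13.57 in DP1 to DP3, and 4.66, 11.38 and 9.83 in LG1 to LG3. As deposited, DP lay above both other stages. On the scaled values LL was highest (11.5 to 20.3), DP intermediate (9.43 to 13.3) and LG lowest (3.89 to 9.23), with an overlap of LL and DP. PNPLA2 was lower in LG than in LL by -1.13 on the log2 scale (SE 0.29, limma adjusted p = 0.00921). This call was lost without LL3 (-0.94) or LG1 (-0.82), and the difference was -0.06 without scaling. For DP against LL the log2 fold change was -0.48 (SE 0.29, adjusted p = 0.173) and turned to 0.82 without scaling, and for LG against DP it was -0.65 (SE 0.29, adjusted p = 0.109).

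**Figure D2:**
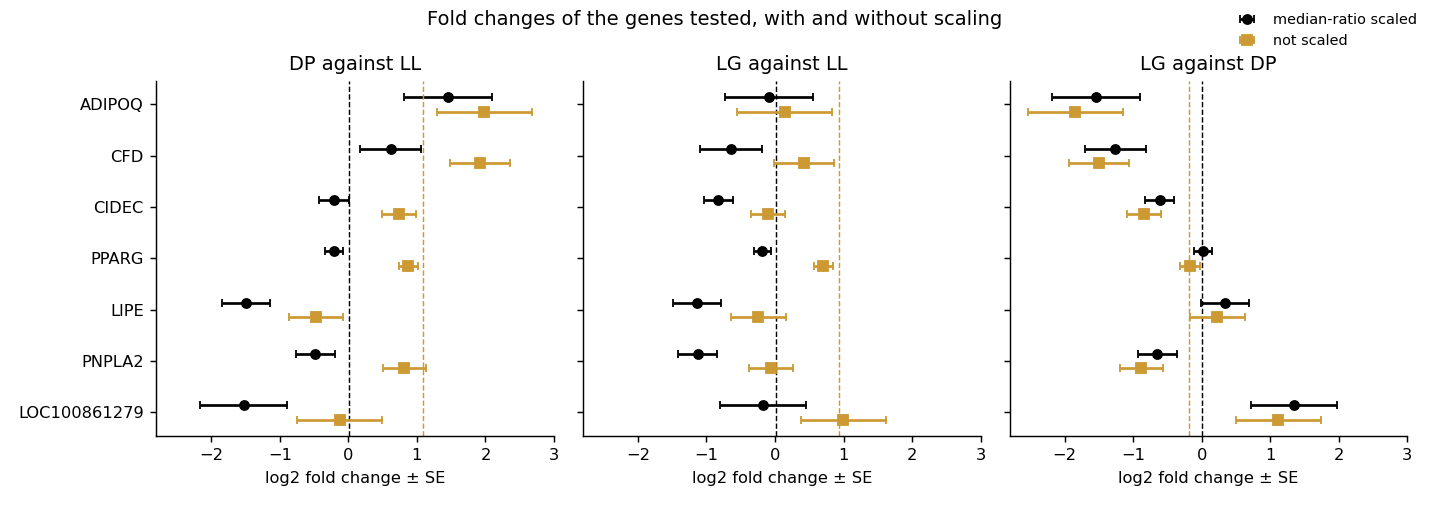
Log2 fold changes (x axis) with standard errors of the 6 genes tested and of LOC100861279 in the 3 stage comparisons, from median-ratio scaled values (circles) and from FPKM without scaling (squares). Dashed lines mark the median of all 14701 genes in each version; relative to those medians LIPE is low in DP against LL and in LG against LL in both versions, at -1.49 against 0.00 and at -0.47 against 1.09 for DP against LL.

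FABP4, a fatty acid carrier abundant in fat cells and also found in capillary endothelium, was not analysed under that symbol. The gene LOC100861279 (gene ID 100861279, chromosome 14, 37370685 to 37375203, plus strand) carries the RefSeq synonym A-FABP, the adipocyte fatty acid binding protein, and is described here apart from the 9 genes, since it was added after its values were seen. It had 151.56, 152.11 and 127.44 FPKM in LL1 to LL3, 217.44, 271.63 and 37.92 in DP1 to DP3, and 380.90, 175.63 and 351.66 in LG1 to LG3. Its level was far above that of ADIPOQ in all 9 libraries, and DP3, not DP1, was the library that stood apart. Comparing DP with LL, the log2 fold change was -1.53 (SE 0.63, limma adjusted p = 0.0615), called without DP1 (-1.86, adjusted p = 0.0497) or DP2 (-2.06, adjusted p = 0.0224) and -0.67 without DP3 (adjusted p = 0.122). For LG against LL it was -0.18 (SE 0.63, adjusted p = 0.832), with a sign that turned without scaling (0.996) and with quantile normalization (0.37), and for LG against DP 1.35 (SE 0.63, adjusted p = 0.124).

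Calls among the 6 tested members are given here beside the shares of all genes tested. For DP against LL, 1 of the 6 tested was called, LIPE, which was lower, against 22.6% of all genes tested (13.8% higher and 8.79% lower). For LG against LL, 2 of 6 were called, LIPE and PNPLA2, both lower, against 17.3% of all genes (10.7% higher and 6.61% lower). For LG against DP, 0 of 6 were called by limma, against 13.3% of all genes (6.37% higher and 6.88% lower). With a pseudocount of 0.1, ADIPOQ was called in DP against LL (2.50) and in LG against DP (-2.75). Without scaling, ADIPOQ (1.98) and CFD (1.92) were called in DP against LL, and CFD in LG against DP (-1.50). CIDEC was called in LG against LL with a pseudocount of 0.1 (-1.27).

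The median log2 fold change of the 6 tested members was -0.21 for DP against LL, -0.73 for LG against LL and -0.63 for LG against DP, where the median of all genes was 0.00, 0.02 and 0.01. In the LG against LL comparison all 6 had negative values. Of the 9 genes found, 8 had DP libraries entirely above the LL libraries in FPKM as deposited, the exception being LIPE, but so did 84% of all genes tested, and none lay entirely below, as 3.88% of all genes did. The 9 include PLIN1, PLIN4 and LEP, which were not tested, whereas all shares in this paragraph cover only the genes tested, so the sets differ. For LG against LL as deposited, 3 of 9 (PLIN4, PPARG and CFD) were entirely higher, against 76.1% of all genes, and 0 of 9 entirely lower, against 3.87%. For LG against DP as deposited, 5 of 9 were entirely lower, against 34.2%, and 0 of 9 entirely higher, against 15.5%. On the scaled values 2 of 9, ADIPOQ and LEP, had DP entirely above LL, against 32.5% of all genes, and 1 of 9, LIPE, had DP entirely below, against 33.4%. LEP was listed at 0 in LL and at only 0.07 FPKM in DP2. For LG against LL, 4 of 9 (CIDEC, LIPE, PNPLA2 and CFD) were entirely lower, against 30.2%, and 0 of 9 entirely higher, against 31%. For LG against DP, 5 of 9 (ADIPOQ, PLIN1, CIDEC, PNPLA2 and CFD) were entirely lower, against 22.8%, and 0 of 9 entirely higher, against 25.1%.

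The members split by library rather than moving as one group. On scaled values DP1 was the highest of the 9 libraries for 5 of 9 members, ADIPOQ, PLIN1, PLIN4, LEP and CIDEC, of which PLIN1, PLIN4 and LEP were not tested. Among the 6 tested members it was the highest for 2, ADIPOQ and CIDEC, against 12.9% of all genes tested. LL3 was highest for PPARG (4.145 scaled FPKM, with 4.139 in LL1), LIPE and PNPLA2, and DP2 for CFD. Over all genes tested, LL3 was highest for 15.1% and DP2 for 6.3%. The gap from DP1 to the next library was 2.64 on the log2 scale for ADIPOQ, the widest such gap among the 14701 genes tested, and 1.89 for PLIN1. Gaps of at least 1 set DP1 apart in 131 genes and DP3 in 250, against 5 to 29 in each of the other libraries. Many of the 131 are neighbouring genes whose values follow 1 shared signal: without the genes in a straight-line relation with a neighbour, 71 remained for DP1, 239 for DP3 and 5 to 24 for each other library. Within DP, the standard deviation of ADIPOQ was 1.69 on the log2 scale and 51 genes tested had a larger one. The standard deviations of PLIN1, CFD and LOC100861279 in DP were 1.11, 1.13 and 1.51, where the median gene had 0.181. In LL and LG, ADIPOQ had standard deviations of 0.178 and 0.0997, beside medians of 0.148 and 0.182.

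Over the 9 libraries, the Pearson correlation of scaled log2 values was 0.98 between ADIPOQ and PLIN1, 0.96 between ADIPOQ and LEP and 0.87 between ADIPOQ and PLIN4, but 0.51 with CIDEC, -0.20 with PPARG, -0.13 with LIPE, -0.0027 with PNPLA2 and 0.09 with CFD. These values describe libraries that share stages, and the high ones rest largely on DP1. Genes in a straight-line relation with a neighbour were left out of the search for like patterns. Among the other genes tested, those nearest the ADIPOQ pattern over the 9 libraries were IL21R, SIPA1 and FADS2. IL21R (r = 0.978, and 0.691 without DP1) encodes a lymphocyte cytokine receptor. SIPA1 (0.976 and 0.859) encodes a GTPase-activating protein, and FADS2 (0.969 and 0.793) encodes a fatty acid desaturase. IL21R had 3.07 FPKM in DP1 and 0.66 FPKM in the lowest DP library. Nearest to PPARG were RTCA (0.933), LOC106503176 (0.899) and NEURL4 (0.894), and nearest to PNPLA2 were PHF12 (0.973), GGNBP2 (0.967) and EMID1 (0.958). DP1 moved those 6 correlations little, since without it they ran from 0.893 to 0.981.

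Markers of other cell types also differed between the libraries. The summed FPKM of 4 leukocyte markers found (PTPRC, CD68, CSF1R and AIF1) was 149, 108 and 94.1 in DP1 to DP3, 16.0 to 21.4 in LL and 33.5 to 38.8 in LG, so DP1 was highest for leukocyte markers as it was for ADIPOQ, and 2 of the 4 were highest in DP1 after scaling. None of the 5 endothelial, 6 fibroblast, 5 luminal epithelial or 5 myoepithelial markers was highest in DP1 after scaling, although the endothelial marker KDR was highest there as deposited (16.99 FPKM, with 15.34 in LG3 next). The sum of the fibroblast markers, collagen genes among them, was 768, 1306 and 3443 in DP1 to DP3 and 105 to 196 in LL. By these sums DP1 was the lowest DP library for fibroblast markers. The same held for the luminal epithelial sum, at 371 against 689 and 444 in DP2 and DP3, and the myoepithelial sum, at 204 against 650 and 497. Single markers were mixed as deposited. Of the leukocyte markers, CD68 was highest in DP2 (25.04 FPKM, with 12.26 in DP1) and AIF1 in DP3 (31.25 FPKM, with 29.06 in DP1). Among the DP libraries, KRT19 was lowest in DP1 (145.65 FPKM), but EPCAM was highest there (59.28 FPKM), and KRT8, KRT18 and CDH1 were higher in DP1 than in DP3. PDGFRA and ACTA2 were lower in DP2 than in DP1, and OXTR was lower in DP3. DP3, the library with the lowest LOC100861279, had the highest sum of fibroblast and of endothelial markers, the latter 231 against 172 and 162. No defining marker of these 5 cell types was at 0 in all libraries of a stage, and their part in the results was not tested.

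**Figure D3:**
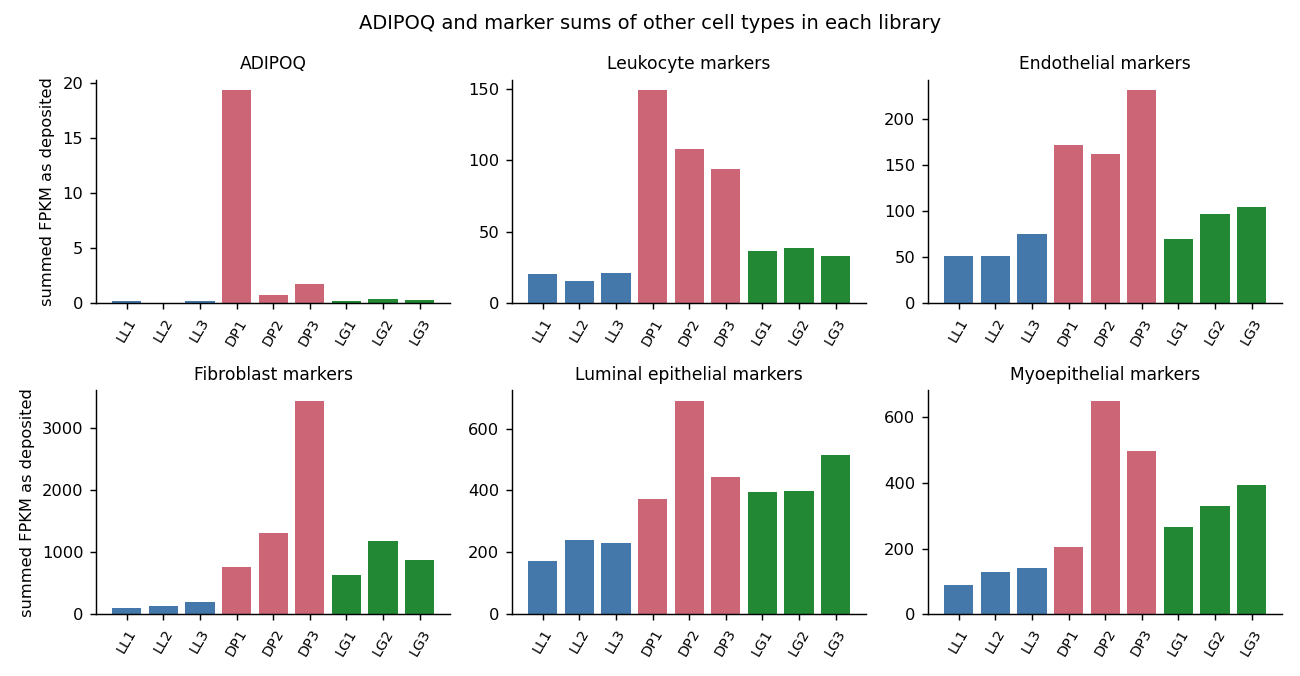
FPKM as deposited (y axes, linear, from 0) of ADIPOQ and of the summed markers of leukocytes, endothelium, fibroblasts, luminal epithelium and myoepithelium, with 1 bar for each library. ADIPOQ and the leukocyte sum are highest in DP1, at 19.32 and 149, while the fibroblast, luminal and myoepithelial sums are lower in DP1 than in DP2 and DP3.

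A second set of 14 genes known from adipocytes was also measured. Of these, 12 were in the table and 8 were tested, and 4 of the 12 were highest in DP1 after scaling: PCK1, the enzyme that supplies glycerol for triglyceride in fat cells, ADIG, ACVR1C and RETN, named here after their values were seen. Of those 4, only RETN was among the 8 tested, and DP1 was the highest library for 12.9% of all genes tested. PCK1 had 1.34 FPKM in DP1 and 0 to 0.05 in the other 8 libraries. ADIG had 0.84, 0.31 and 0.25 FPKM in DP1 to DP3 and 0 to 0.10 elsewhere. RETN had 4.65, 0.73 and 0.17 FPKM in DP1 to DP3, with 0.98 in LG1 next highest, and was not called (0.58 for DP against LL, adjusted p = 0.250).

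By the limma fit, 2 of the 8 rose and 1 fell in DP against LL, with a median of 0.13 on the log2 scale, 0 changed in LG against LL, and 1 rose and 2 fell in LG against DP. RBP4, the retinol carrier that adipocytes secrete, had 0 to 0.20 FPKM in LL, 4.18, 4.17 and 23.25 in DP1 to DP3, and 0.84 to 1.50 in LG (2.39 for DP against LL, adjusted p = 0.00286). ITIH5, a matrix-stabilising protein gene active in fat, had 2.29 to 4.62, 12.50 to 28.47 and 4.96 to 11.61 FPKM in LL, DP and LG, and its rise in DP against LL of 1.05 (adjusted p = 0.0191) was lost without LL1 or DP3. Both fell in LG against DP, RBP4 by 1.70 and ITIH5 by 1.00 on the log2 scale, and both of these calls were lost without DP3 (-0.98 and -0.75), without LG1 or LG3, and in a fit of 2 stages only. That of ITIH5, at the fold limit, was lost in 7 of 18 alternatives in all, also without LL2, without DP1 and without the expression filter. SLC2A4, encoding the insulin-responsive glucose transporter GLUT4, ran the other way with 499 to 578 FPKM in LL libraries, 41.2 to 51.3 in DP libraries and 880 to 986 in LG libraries (-4.98 for DP against LL, adjusted p = 1.22e-07, and 4.59 for LG against DP, adjusted p = 1.00e-06). As deposited its level was higher in LG than in LL, but on scaled values the log2 fold change was -0.39 (limma adjusted p = 0.0907), which was not called.

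Other perilipin and CIDE genes were measured beside PLIN1, PLIN4 and CIDEC. Of 8 related droplet genes, 7 were tested, 4 fell in DP against LL with none rising (median -1.69), 2 fell in LG against LL (median -0.47) and 3 rose in LG against DP (median 0.42). CIDEA, which in lactating epithelium takes part in milk lipid secretion, had 155 to 217 FPKM in LL libraries, 1.58 to 3.75 in DP libraries and 22.9 to 28.4 in LG libraries. It fell by 7.03 in DP against LL (adjusted p = 1.09e-07) and by 3.89 in LG against LL, and rose by 3.14 in LG against DP, while its relative CIDEC was not called in any of these comparisons. CIDEA was thus above CIDEC in every LL and LG library and below it in DP1 and DP2.

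PLIN3, a perilipin found on small droplets in most cells, had 23.6 to 39.0 FPKM in LL libraries, 18.2 to 32.8 in DP libraries and 56.2 to 209 in LG libraries. It fell by 1.85 in DP against LL (adjusted p = 0.00443), a call lost without scaling (-0.49), and rose by 2.21 in LG against DP. PLIN2, the perilipin of milk fat globules, had 40.2 to 77.8 FPKM in DP, where it was lowest. The log2 ratio of PLIN1 to PLIN2 within a library, taken from FPKM as deposited with a pseudocount of 1, was -7.21 ± 0.25 (SD, n = 3) in LL, -4.50 ± 1.55 (SD, n = 3) in DP and -8.36 ± 0.22 (SD, n = 3) in LG, and no pair of stages overlapped. The DP ratio remained apart from both other stages without any 1 library. PLIN1 lay far below the pseudocount in LL and LG, so there the ratio mostly follows PLIN2. With no pseudocount the difference between DP and LL went from 2.71 to 5.28, and that between LG and LL from -1.16 to -0.07, with overlap.

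**Figure D4:**
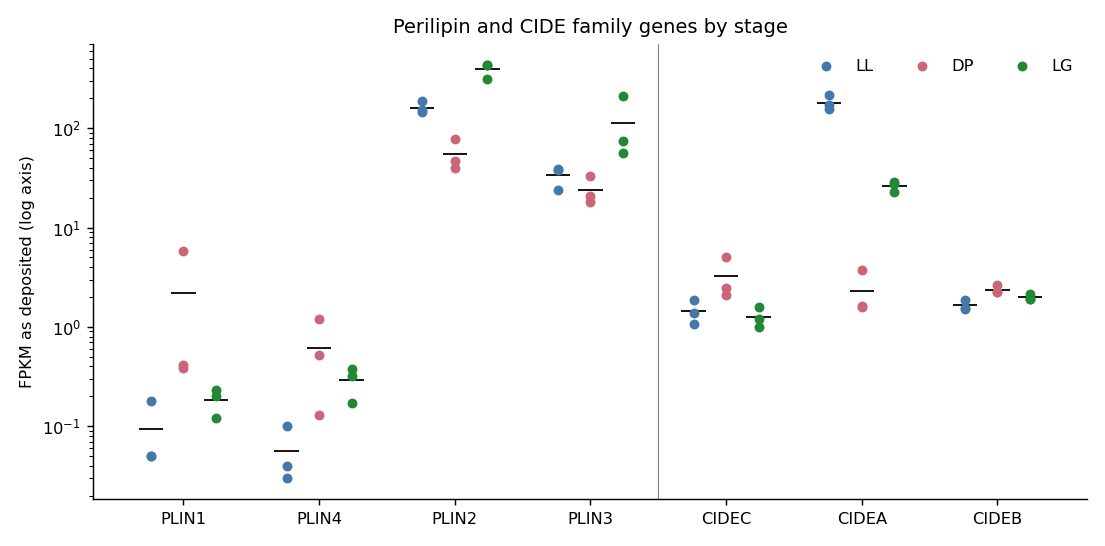
FPKM as deposited (y axis, log scale) of perilipin genes (left of the grey line) and CIDE genes (right) in LL, DP and LG, with points for libraries and bars for means of 3. PLIN1, PLIN4 and CIDEC have their highest point in DP, while PLIN2 and CIDEA have their lowest values there, with CIDEA at 1.58 to 3.75 FPKM against 155 to 217 in LL.

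Other genes of lipolysis and its control were also measured, MGLL and AQP7 among them, so not all act upstream of the lipases. Of 17 named, 14 were tested, 2 rose and 1 fell in DP against LL (median -0.03), 1 rose and 3 fell in LG against LL (median -0.15), and 0 rose and 4 fell in LG against DP (median -0.34). ABHD5, the coactivator that PLIN1 holds back from PNPLA2, had 0.12 to 0.31 FPKM in LL libraries, 3.41 to 5.37 in DP libraries and 1.28 to 2.32 in LG libraries, with no overlap between stages. For DP against LL it rose by 1.63 on the log2 scale (SE 0.19, adjusted p = 9.92e-05), and this call held under all 18 alternatives. PDE3B, the phosphodiesterase through which insulin lowers cyclic AMP and lipolysis, had 7.53 to 13.21 FPKM in LL libraries, 5.49 to 11.08 in DP libraries and 1.40 to 2.45 in LG libraries. PDE3B fell by 1.74 in DP against LL (adjusted p = 0.000808), a call lost without scaling (-0.46), by 3.01 in LG against LL (adjusted p = 4.33e-05) and by 1.27 in LG against DP (adjusted p = 0.00773). GNAI1, an inhibitory G protein subunit that restrains cyclic AMP formation, had 2.02 to 2.26 FPKM in LG and fell there by 1.86 against LL (adjusted p = 6.68e-05) and by 1.23 against DP (adjusted p = 0.00118). Without scaling the GNAI1 value for LG against LL was -0.90, under the fold limit.

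The lipases were also set against each other within libraries. The log2 ratio of LIPE to PNPLA2 was -1.26 ± 0.27 (SD, n = 3) in LL, -2.55 ± 0.67 (SD, n = 3) in DP and -1.44 ± 0.70 (SD, n = 3) in LG. DP and LL did not overlap, with a difference of -1.29, whereas LG overlapped both. In all, 11 such ratios gave 33 stage comparisons, of which 16 did not overlap. Every one of these 16 had a two-sided exact permutation p of 0.1, the smallest that 3 against 3 can give, and an adjusted p of 0.206. Most of the 11 ratios had ADIPOQ as denominator, so many of the comparisons share that gene, and no ratios of other genes were set beside them. Whether 16 of 33 is more or less than for other genes is therefore unknown. With PLIN1 as denominator in place of ADIPOQ, 13 of 33 did not overlap. With no pseudocount, 13 of 30 comparisons did not overlap, those with LEP being left out since it was listed at 0 in LL. The ratio of LIPE to ADIPOQ was lower in DP than in both other stages without overlap, with and without the pseudocount. The ratio of PLIN1 to ADIPOQ did not overlap between DP and either other stage with the pseudocount but overlapped in both comparisons without it, and the ratio of PLIN4 to ADIPOQ then overlapped between DP and LL. The ratio of CFD to ADIPOQ spanned 0.01 to 5.35 within DP and overlapped both.

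Among the other fatty acid binding proteins, 3 of 7 were tested, and 1 rose and 1 fell in DP against LL (median -0.54), 0 rose and 2 fell in LG against LL (median -1.50), and 1 rose and 1 fell in LG against DP (median -0.96). FABP3, the form abundant in lactating epithelium, had 638 to 1506 FPKM in LL libraries, 1.86 to 6.10 in DP libraries and 127 to 395 in LG libraries, and fell in DP against LL (-9.25) and in LG against LL (-3.62). FABP7, known from brain, had 6.77, 23.30 and 1.86 FPKM in DP1 to DP3 and at most 0.88 elsewhere, with a rise of 2.24 in DP against LL (adjusted p = 0.00837) and a fall in LG against DP of -2.19 (adjusted p = 0.0153). The first of these calls was lost with quantile normalization (1.76) and the second without LG3 (-2.07). FABP7 would not have reached the expression limit without the DP libraries, so its place among the tested genes already depended on that stage. FABP5, the epidermal form, fell in LG against LL by 1.50 (adjusted p = 0.0103), a call lost without scaling (-0.36) and with quantile normalization.

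Of 9 adipogenic transcription factors beside PPARG, 8 were tested, and 1 rose and 2 fell in DP against LL (median -0.38), 1 fell in LG against LL (median -0.44) and 1 fell in LG against DP (median -0.37). EBF2, a factor of adipocyte precursors, had 0.27 to 0.41 FPKM in LL libraries, 2.90 to 5.43 in DP libraries and 0.26 to 0.50 in LG libraries. It rose by 1.10 in DP against LL (adjusted p = 0.000951), a call lost with quantile normalization (0.63) and without DP3 (0.89), and fell by 1.44 in LG against DP (adjusted p = 0.000474). EBF2, like ADIPOQ, would not have been tested without its DP values, so these calls are not independent of that stage. KLF15, a glucocorticoid-responsive factor of lipid and amino acid metabolism, had 10.44 to 23.72, 7.14 to 14.33 and 1.31 to 7.34 FPKM in LL, DP and LG. Its level fell by 1.90 in DP (adjusted p = 0.00401) and by 2.95 in LG (adjusted p = 0.000444) against LL, the first of these calls being lost without scaling (-0.58). PPARA, the fatty acid oxidation relative of PPARG, fell in DP against LL by 1.16 (adjusted p = 0.00124), and this value was -0.17 without scaling. CEBPD and PLIN5 were listed at 0 in every library.

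Receptors for the adipokines were expressed at levels well above those of ADIPOQ and LEP outside DP1. LEPR, the leptin receptor gene, had 0.95, 1.64 and 1.20 FPKM in LL1 to LL3, 5.02, 4.09 and 4.85 in DP1 to DP3, and 10.45, 8.48 and 11.15 in LG1 to LG3. The stages did not overlap as deposited, but LL and DP overlapped after scaling, and LEPR was not called for DP against LL (0.35, adjusted p = 0.0658). It rose in LG by 1.47 on the log2 scale against LL (SE 0.15, adjusted p = 6.37e-05) and by 1.11 against DP (SE 0.15, adjusted p = 0.00055), the latter being 0.96 without scaling. LEP itself was listed at 0 in 2 of the 3 LG libraries. ADIPOR2, an adiponectin receptor gene, had 10.96 to 16.22 FPKM in LL libraries, 7.53 to 9.74 in DP libraries and 4.95 to 9.19 in LG libraries, and fell by 1.87 and 1.83 against LL (adjusted p = 0.000107 and 0.00017), calls lost without scaling (-0.57 and -0.74). Of the 4 receptor genes, all tested, 0 rose and 1 fell in DP against LL, 1 rose and 1 fell in LG against LL, and 1 rose in LG against DP (medians -0.21, -0.31 and 0.12).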

How the data were processed

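Total RNA of 9 mammary gland samples was made into libraries with the TruSeq RNA Library Prep Kit v2, which does not mark strand. The submitters' processing notes name FastQC, Trimmomatic, HISAT2, SAMtools and HTSeq, and the study's methods name StringTie. The deposited table gives 1 value per gene and library with 2 decimals. It names no unit, and the values were taken as FPKM computed by the authors. Gene starts and ends equal those of RefSeq ARS1.2 for all 23465 gene IDs matched. Values were divided by median-ratio factors from 15905 genes, log2-transformed with a pseudocount of 1 and fitted by limma 3.58.1 (R 4.3.3, eBayes with trend) over all 9 libraries. The fit was also run on simulated data, in which each gene had the same spread in all libraries. That run does not cover a single outlying library such as DP1. The limma p-values rest on the spread between 3 goats per stage, pooled over all stages, so a wide spread in 1 stage also enters the comparison without it. The members and gene lists were chosen with earlier results of these data known. Text names all members, up to 3 called genes of the largest fold in each list, and the 3 genes most like ADIPOQ, PPARG and PNPLA2. TRARG1, LGALS12, GNAS, PMP2 and CD163 were not analysed here. A straight-line relation with a neighbouring gene, which can arise where 1 signal is shared out, was found for 619 genes and for 0 members. Alternatives were no scaling, quantile normalization, a pseudocount of 0.1, other filters, no trend, 2 stages only, a replicate block, removal of those 619 genes, and each library left out. The fit without filter and without DP1, the A-FABP gene in place of FABP4, and correlations without DP1 were added after seeing the data.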

Additional observations from a re-analysis of the deposited data

How the results depend on the processing

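Without scaling, 8348 genes (DP against LL) and 7043 genes (LG against LL) were called where scaling gave 3321 and 2544, and a pseudocount of 0.1 gave 3912 for LG against LL. Members called without scaling numbered 2 (DP against LL), 0 (LG against LL) and 1 (LG against DP), and with a pseudocount of 0.1 they numbered 2 in DP against LL and 1 in LG against DP. Several values changed sign without scaling, by its construction: CIDEC (0.74), PNPLA2 (0.82) and PPARG (0.87) in DP against LL, ADIPOQ (0.14), CFD (0.42), LOC100861279 (0.996) and PPARG (0.70) in LG against LL, and PPARG (-0.17) in LG against DP. LOC100861279 for LG against LL was also 0.37 with quantile normalization and 0.16 without LG2, down to -0.41 without LG1. Leaving out a library turned CFD for DP against LL (-0.038 without DP2, up to 0.98 without DP3), LIPE for LG against DP (-0.068 without LG3, up to 0.63 without LG1) and PPARG for LG against DP (-0.084 without DP3 and -0.0087 without LG2, up to 0.11 without DP2). With each library left out in turn, 3048 to 3454, 2435 to 2642 and 1775 to 2066 genes and 1 to 2, 0 to 2 and 0 to 1 members were called (in the order DP to LL, LG to LL, LG to DP), and 16 to 20 of the ratio comparisons did not overlap. Same-numbered libraries deviated from their stage means with correlations of -0.106 to 0.201, and differently numbered ones with -0.223 to 0.0722. The highest values were thus between same-numbered libraries, and whether these share a batch was not tested. Each stage had different goats, so the numbers were not taken to pair goats. With the replicate block in the limma fit, 1 member was called for LG against DP (CFD, -1.26, adjusted p = 0.0493) and LOC100861279 for DP against LL (adjusted p = 0.0481). Depth is unknown here, and for PLIN1, PLIN4 and LEP values near 0.1 FPKM sit close to the 0.01 step of the table.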

Other observations

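The genes with the widest gap from DP1 to the next library after ADIPOQ were, among those with a named symbol, SPINK9, a protease inhibitor gene, and MAP28, BAC5 and BAC7.5, genes of cathelicidins, the antimicrobial peptides of neutrophil granules. MAP28 had 23.2 FPKM in DP1, 1.91 in DP2, 0 in DP3 and 2.87 in LG1. BAC5 had 22.1, 2.40 and 0.03 FPKM in DP1 to DP3, and SPINK9 had 31.5, 5.09 and 3.79. CXCL13, a B cell chemoattractant, had 35.7, 10.4 and 0.51 FPKM in DP1 to DP3 and at most 0.43 in the other 6 libraries. These genes were named after their values were seen, and no comparison between stages was made for them.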
